A study of Mus musculus with 40 samples.

Results

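The genes described here are tumor necrosis factor (*Tnf*), its receptors *Tnfrsf1a* and *Tnfrsf1b*, the sheddase *Adam17*, the osteoclast receptor RANK (*Tnfrsf11a*), osteoprotegerin (*Tnfrsf11b*), the death ligand TRAIL (*Tnfsf10*), the TNF-induced gene *Tnfaip2* and the death receptor *Fas*. They were found by symbol as 9 rows among the 27179 genes of an RNA-seq table. They were selected by name, except *Tnfrsf11b*, which was chosen by its rlog value, higher in the knockout at 6 hr, so its genotype difference at that time is described and not tested. The table covers bone marrow-derived macrophages (BMDMs) of 4 WT and 4 *Cpeb4*-/- male mice on a mixed C57BL/6J and 129 background. The knockout was total, so every cell of the *Cpeb4*-/- mice carried it. BMDMs of each mouse were grown with L-cell conditioned medium as the source of M-CSF and were left untreated or kept for 1, 3, 6 or 9 hr with LPS at 10 ng/ml, which gave 40 libraries in 10 groups of 4. The labels put 2 mice of each genotype in each of 2 batches.

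TNF is made as a membrane-bound trimer, is cut from the cell surface by ADAM17, and signals through TNFR1, which is found on most cells and carries a death domain, and through TNFR2, which is prominent on myeloid cells. Macrophages are a main source of TNF after LPS. Its mRNA carries AU-rich elements (AREs) that bind the destabilizing protein tristetraprolin. RANK drives osteoclast formation from macrophage precursors when it meets its ligand RANKL, and osteoprotegerin is a soluble decoy that binds RANKL and also TRAIL. CPEB4, the protein missing in the knockout, binds cytoplasmic polyadenylation elements (CPEs) in 3′ UTRs.

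Because the study contrasted AREs with CPEs, the 3′ UTRs of the 9 genes were searched for both, on the mRNA strand, in the longest coding transcript of each gene (GENCODE vM21, mm10). The ARE core pentamer ATTTA was present in 7 of the 9 genes, beside 68.8% of 11962 tested genes with a 3′ UTR. *Tnf* and *Tnfsf10* held 8 copies each, *Tnfrsf11a* held 5, *Tnfrsf11b* 3, *Tnfrsf1b* and *Tnfaip2* 2 each and *Adam17* 1, and *Tnfrsf1a* and *Fas* held none. The longer nonamer TTATTTATT, which contains the pentamer, was present in *Tnf* and in none of the other 8 genes. *Tnf* held 5 copies that overlapped each other, in its 3′ UTR of 764 bases in the last of 4 exons. Among all tested genes 7.87% held at least 1 nonamer. Of the 1547 whose 3′ UTR was within 1.25-fold of the *Tnf* length 0.0646% held as many as *Tnf*. That share is *Tnf* itself. The CPE hexamer TTTTAT was present in 6 of the 9 genes, beside 56.0% of all tested genes. *Tnfrsf11b* held 9 copies in 1375 bases. Of the 1904 genes with a 3′ UTR of like length 0.21% held as many, a share that includes *Tnfrsf11b* itself. *Tnfrsf1b* and *Tnfsf10* held 3 copies each, *Adam17* and *Tnfaip2* held 2 each, *Tnfrsf11a* held 1, and *Tnf*, *Tnfrsf1a* and *Fas* held none. A second CPE form, TTTTAAT, was present once in *Tnfrsf1b*, *Adam17* and *Tnfrsf11b* and 2 times in *Tnfsf10*, beside 31.0% of all tested genes. The study also counted other CPE forms, such as TTTTGT, which were not searched here, and a gene that held neither form may hold one of those. These matches are letters in a reference sequence and no binding was measured here.

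The sites of both kinds in the genes on which the results turn were read as 30-base windows, 5′ to 3′, with the matched letters in capitals. The *Tnf* window (chr17:35199678-35199707, minus strand) lies wholly within the run of overlapping nonamers. The *Tnfrsf11b* window (chr15:54250805-54250834, minus strand) holds 2 of its hexamers, and those of *Tnfaip2* (chr12:111454915-111454944, plus strand) and *Tnfrsf11a* (chr1:105847160-105847189, plus strand) hold 1 each. The pentamer windows of the same 3 genes (chr15:54251454-54251483, minus strand, chr12:111453903-111453932 and chr1:105845094-105845123, both plus strand) hold 1 pentamer each, so that these genes carry both kinds of letters. So does *Tnfsf10*, with 2 pentamers in 1 window (chr3:27339339-27339368, plus strand) and the second CPE form in another (chr3:27336939-27336968, plus strand).
Tnf ARE nonamer: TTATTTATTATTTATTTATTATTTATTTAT
Tnfrsf11b CPE: gtgtggaatgtTTTTATaatataaTTTTAT
Tnfaip2 CPE: gttaatattatTTTTATagtgttggttttg
Tnfrsf11a CPE: aggccttaataTTTTATctagaccttaaca
Tnfrsf11b ARE pentamer: tgtggtagtttATTTAacagattgccacca
Tnfaip2 ARE pentamer: ggtgaagcctcATTTAtaccatttccttca
Tnfrsf11a ARE pentamer: cccacccccatATTTAttattcacttgctt
Tnfsf10 ARE pentamer: aagtattgttttacctATTTAtcatATTTA
Tnfsf10 CPE: aactccaaaggagcccatatgtgTTTTAAT

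**Figure D1:**
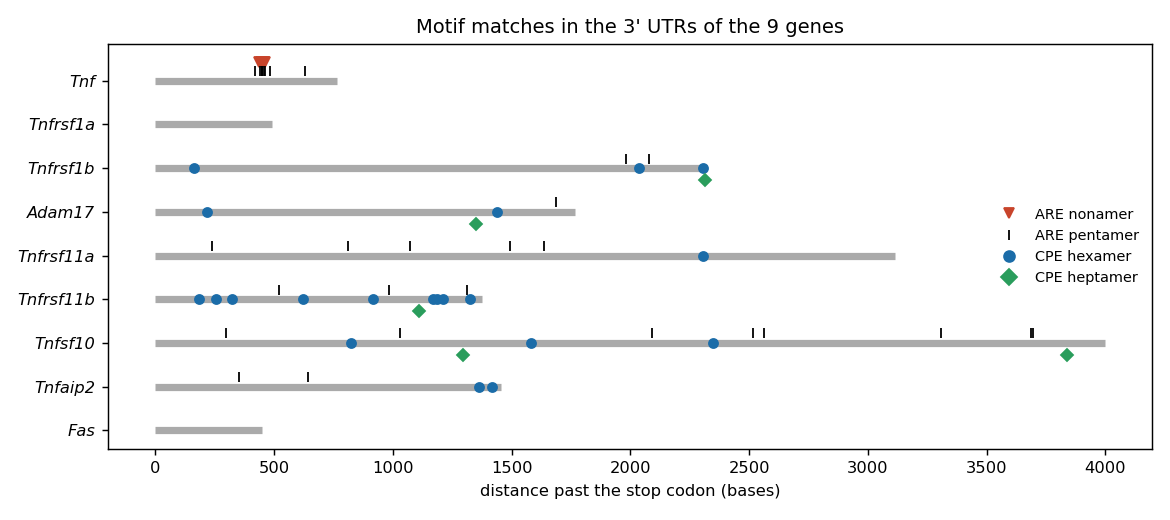
Positions of motif matches (symbols) along the 3′ UTR (grey bar) of each of the 9 genes, in bases past the stop codon on a linear axis. Pentamers are ticks above the bar and stand in 7 of the genes. The 5 ARE nonamers all sit between bases 438 and 460 of *Tnf*, whereas the 9 CPE hexamers of *Tnfrsf11b* are spread from base 184 to base 1323.

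The values are regularized log (rlog) values, a log2 scale on which low counts are pulled toward the mean of the gene, so that differences of weakly expressed genes come out too small. Read depth is unknown from such a table. *Cpeb4* itself was at 10.42, 10.62, 10.67 and 10.09 in WT mice 25, 88, 69 and 87 at 6 hr and at 9.45, 8.74, 8.87 and 9.66 in *Cpeb4*-/- mice 3, 62, 2 and 55. The knockout minus WT value was −1.27 (SE 0.19, limma adjusted p = 0.0011), and the genotypes overlapped at the other times (adjusted p = 0.36 to 0.61). The table has 1 value per gene, so transcripts left over from the targeted locus are counted with intact ones. All 7 macrophage markers were expressed, and at 3, 6 and 9 hr the number called lower in *Cpeb4*-/- BMDMs was 1, 4 and 2. Over all genes 3.68%, 16.3% and 7.91% were called in either direction, with 244, 1294 and 419 genes lower. The summed level of the macrophage list was 530300 to 582600 (2 to the power of rlog) in WT and 428400 to 504000 in *Cpeb4*-/- BMDMs at 6 hr, and the groups did not overlap at the other times either. *Lyz2*, the highest of the list, weighs most in this sum and was at 18.226 to 18.456 in WT and 17.782 to 18.195 in *Cpeb4*-/- BMDMs at 6 hr. *Csf1r*, *Cd68* and *Fcgr1* were also separated at 6 hr, lower in the knockout, while *Adgre1*, *Itgam* and *Mertk* overlapped. Of 5 endothelial markers 3 passed the filter on low values, with a summed level of 2040 to 2532 in WT and 2304 to 3222 in *Cpeb4*-/- BMDMs at 6 hr and 1242 to 1489 against 1911 to 2688 at 9 hr. Before LPS the sum was 1007 to 1271 against 1327 to 1540, and at 1 hr 927.9 to 1239 against 1482 to 1807. At 3 hr it was 1205 to 1894 against 2026 to 2316, so the groups overlapped at 6 hr only. Among the endothelial markers *Kdr* was called higher at 1, 3 and 9 hr (0.50, 0.73 and 0.99, adjusted p = 0.0097, 0.019 and 0.0025) and *Vwf* at 1 hr (0.62, adjusted p = 0.032). These and the dendritic cell markers that follow were named because they passed the test. Among the latter, *Clec9a* was higher before LPS (0.88, adjusted p = 0.044), *Zbtb46* higher at 3 hr (1.10, adjusted p = 0.0068) and *Xcr1* lower at 6 hr (−0.49, adjusted p = 0.012). No T and NK cell marker passed the filter, and no neutrophil or B cell marker was called at any time. The part of these lists in the results was not tested. No cage held both genotypes, so cage and genotype cannot be told apart. In bulk RNA, fewer cells of a kind and less RNA per cell cannot be told apart.

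Per kilobase of transcript, untreated WT BMDMs expressed *Tnfrsf1b* most, at 12.78 ± 0.06 on the log2 scale (SD, n = 4). *Tnfaip2* (12.03 ± 0.06), *Tnf* (11.77 ± 0.03), *Tnfrsf1a* (11.31 ± 0.05) and *Adam17* (11.18 ± 0.09) followed, then *Tnfrsf11a* (9.15 ± 0.16), *Fas* (8.38 ± 0.10) and *Tnfsf10* (5.09 ± 0.17). *Tnfrsf1a* and *Adam17* overlapped between libraries, while the other neighbours in this order did not. *Tnfrsf11b* was last at −0.04 ± 0.02. At 1 hr *Tnf* led the order at 16.13 ± 0.04, and at 6 and 9 hr *Tnfrsf1b* led again, at 15.10 ± 0.04 and 14.86 ± 0.05. In *Cpeb4*-/- BMDMs *Adam17* stood level with *Tnfrsf1a* before LPS (both 11.25), and the top of the order differed at 3 hr and at 9 hr, when *Tnfaip2* stood above *Tnf* (15.06 ± 0.04 against 15.00 ± 0.13 at 3 hr, and 13.33 ± 0.11 against 13.13 ± 0.15 at 9 hr), although the libraries of these neighbours overlapped at both times. Reads of *Adam17* can come from *Iah1* on the opposite strand, whose exons it overlaps (*Iah1* mean rlog 10.19 to 10.40 in all 10 groups), and those of *Tnfaip2* from an overlapping antisense transcript, because the library kit did not mark strand.

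In both genotypes *Tnf* mRNA peaked at 1 hr after LPS and fell at every later step, whereas the mRNAs of both TNF receptors were highest at 6 hr. *Tnf* (chr17:35199381-35202007) was at 12.48, 12.45, 12.53 and 12.49 rlog in untreated WT BMDMs of mice 25, 88, 69 and 87 and at 16.81, 16.83, 16.82 and 16.90 at 1 hr. That was a 20.5-fold rise (difference 4.36, standard error 0.08, limma adjusted p = 1.4e-32), and the rise in *Cpeb4*-/- BMDMs was 17.5-fold (4.13, standard error 0.08, adjusted p = 8.1e-32). In WT BMDMs *Tnf* then fell by 0.97 from 1 to 3 hr, by 0.41 from 3 to 6 hr and by 1.16 from 6 to 9 hr, and in *Cpeb4*-/- BMDMs by 0.96, 0.60 and 1.27 (adjusted p at most 1.3e-05 for each step). At 9 hr it was still above the untreated level in every mouse, by 1.66 to 2.03 in WT and by 1.16 to 1.45 in *Cpeb4*-/- mice, ranges that did not overlap.

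TNFR1 and TNFR2 mRNAs followed a slower course. *Tnfrsf1a* (chr6:125349362-125362484) differed by 0.03 in WT and by −0.03 in *Cpeb4*-/- BMDMs after 1 hr (adjusted p = 0.64 and 0.52), although quantile normalization gave a fall in WT (−0.23, adjusted p = 3.1e-06). It then rose by 0.79 and 0.52 in WT and by 0.76 and 0.46 in *Cpeb4*-/- BMDMs over the next 2 steps. *Tnfrsf1b* (chr4:145213463-145246870) rose at every step to 6 hr, by 0.79, 0.81 and 0.72 in WT and by 0.84, 0.72 and 0.62 in *Cpeb4*-/- BMDMs. Both receptors then fell from 6 to 9 hr, *Tnfrsf1a* by 0.45 and 0.41 and *Tnfrsf1b* by 0.24 and 0.25, in WT and *Cpeb4*-/- BMDMs, except that quantile normalization ended the fall of *Tnfrsf1b* (0.06 in WT, adjusted p = 0.38). *Adam17* (chr12:21323509-21373632) rose by 0.43 in WT and 0.57 in *Cpeb4*-/- BMDMs in the first hour, but quantile normalization reduced the rise in WT to 0.11 and ended its call (adjusted p = 0.26). Its later changes were at most 0.29 in size and turned sign under quantile normalization in both genotypes, which also ended the calls from untreated to 9 hr (0.64 and 0.68 became 0.02 and 0.11, adjusted p = 0.83 and 0.19). The call of its rise from 1 to 3 hr in WT was lost without WT mouse 88 (adjusted p = 0.14). That of its fall from 6 to 9 hr in the knockout was lost without *Cpeb4*-/- mouse 2, 3 or 55 or WT mouse 25 or 69 (0.20, 0.058, 0.16, 0.052 and 0.053) and with no filter on low values (0.071).

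The mRNAs of TRAIL and RANK rose after the first hour, and those of *Tnfaip2* and *Fas* within it. *Tnfsf10* (chr3:27317028-27342427) was no different after 1 hr by the test (adjusted p = 0.42 in WT and 0.89 in *Cpeb4*-/- BMDMs) and then rose 8.73-fold in WT and 6.56-fold in *Cpeb4*-/- BMDMs by 3 hr. It rose again by 1.19 and 0.85 to 6 hr and fell by 1.84 and 0.99 to 9 hr. *Tnfrsf11a* (chr1:105780718-105847981) rose by 1.18 in WT and 1.23 in *Cpeb4*-/- BMDMs from 1 to 3 hr and fell in both later steps, by 0.40 and 0.37 in WT and by 0.86 and 0.22 in *Cpeb4*-/- BMDMs. Quantile normalization ended the call of its last fall in both genotypes (−0.19 and −0.09, adjusted p = 0.078 and 0.43), and in the knockout this call was also lost without any of the 4 *Cpeb4*-/- mice (adjusted p = 0.055 to 0.16) and with no filter on low values (0.059). *Tnfaip2* (chr12:111442469-111455018), which encodes an exocyst-related protein involved in membrane protrusions, rose 4.89-fold in WT and 4.66-fold in *Cpeb4*-/- BMDMs within 1 hr, peaked at 3 hr and fell in both later steps. *Fas* (chr19:34290666-34327772) rose by 1.26 in WT and 1.25 in *Cpeb4*-/- BMDMs in the first hour and by 1.05 and 0.94 from 1 to 3 hr.

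Counted over steps and leaving out *Tnfrsf11b*, whose mean passed the filter on low values through the *Cpeb4*-/- libraries, LPS called 5 of the other 8 genes from untreated to 1 hr in WT, all higher, and 6 in *Cpeb4*-/- BMDMs, 5 of them higher, beside 37.7% and 41.9% of all 13103 genes tested. From 1 to 3 hr it called 8 in WT and 7 in *Cpeb4*-/- BMDMs, with *Tnf* the lower one in both, beside 62.9% and 62.2%. From 3 to 6 hr it called 7 in each, beside 66.8% and 62.9%, with *Tnf*, *Tnfrsf11a* and *Tnfaip2* lower in both. From 6 to 9 hr it called 8 in each, all lower, beside 54.4% and 51.5%. From untreated to 9 hr it called 8 in WT and 7 in *Cpeb4*-/- BMDMs, all higher, beside 73.7% and 71.3%. The exception was *Tnfrsf11a*, whose value in the knockout was not called (−0.12, standard error 0.09, adjusted p = 0.23, and −0.44 with adjusted p = 4.9e-05 under quantile normalization). Its rise in WT (0.21, adjusted p = 0.025) turned to −0.11 under quantile normalization (adjusted p = 0.25) and was lost without WT mouse 87 or 88 (0.11 and 0.080).

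**Figure D2:**
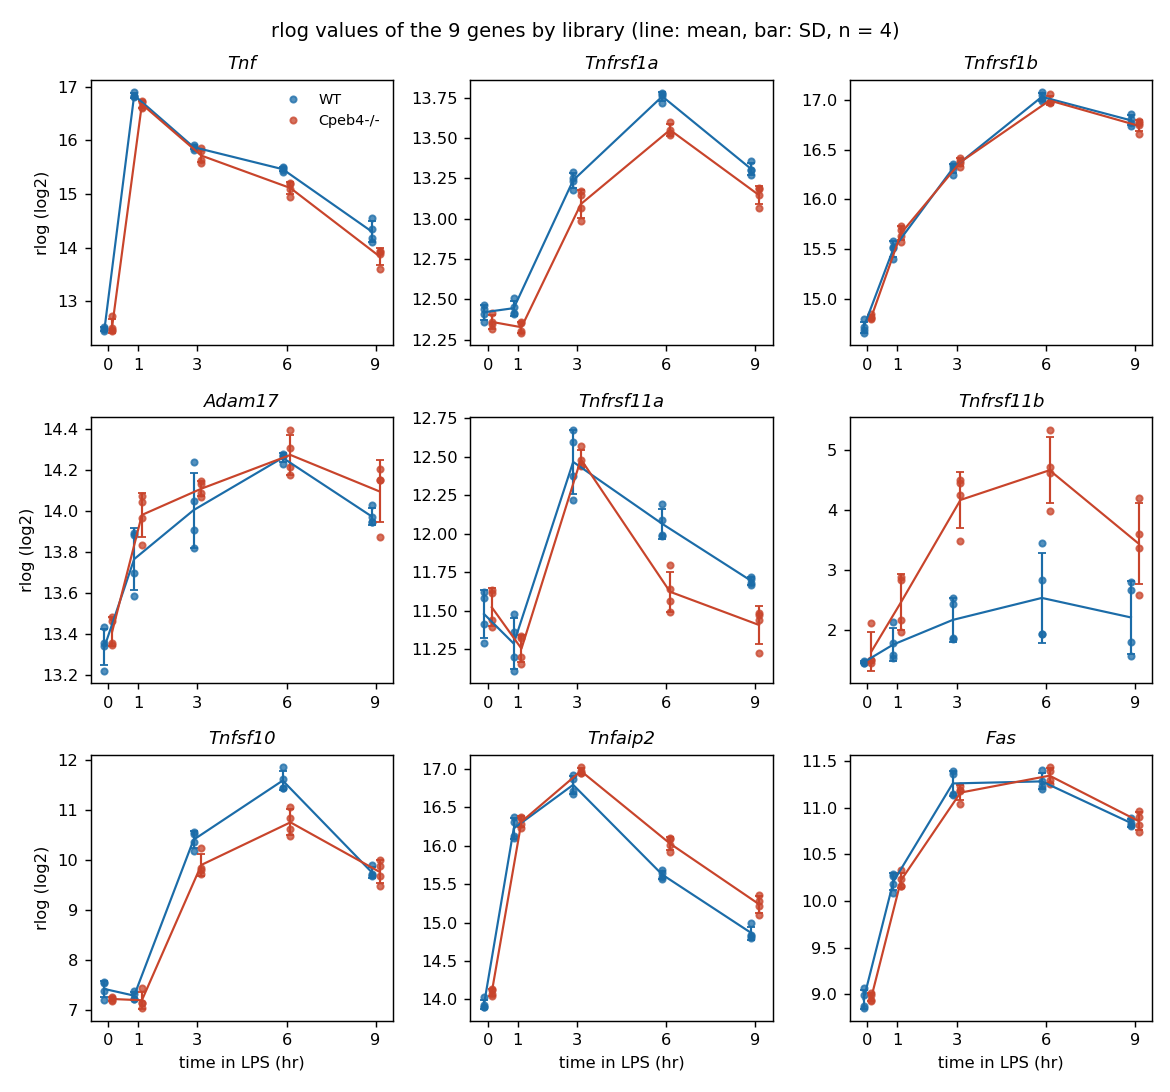
rlog values (log2 axis, different range in each panel) of the 9 genes against time in LPS, with 1 point per library, the mean as a line and the SD as a bar (n = 4) for WT (blue) and *Cpeb4*-/- (red) BMDMs. *Tnf* peaks at 1 hr and the receptors *Tnfrsf1a* and *Tnfrsf1b* at 6 hr. The genotypes separate at 6 hr for *Tnf*, *Tnfrsf1a*, *Tnfrsf11a*, *Tnfsf10*, *Tnfaip2* and *Tnfrsf11b*, the last of which was chosen by its values at that time.

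The comparison of the genotypes at each time asks where loss of CPEB4 changed these mRNAs. Before LPS and at 1 hr none of the 8 genes tested was called (limma, with 1.31% and 1.91% of all genes called). At an unadjusted p under 0.05 there were 3 and 4 of the 8, beside 2306 of 13095 and 4631 of 13118 genes tested. At 3 hr 1 of these 8 was called, lower, beside 3.68% of all genes. At 6 hr 5 of 8 were called, 4 lower and 1 higher, beside 16.3% of all genes (1294 lower and 835 higher). At 9 hr 3 of 8 were called, 2 lower and 1 higher, beside 7.91% (419 lower and 610 higher). *Tnfrsf11b* is not in these counts, since its mean reached the filter on low values at 3 and 9 hr through its *Cpeb4*-/- libraries. The gene lower at 3 hr was *Tnfsf10*. The lower genes at 6 hr were the ligands *Tnf* and *Tnfsf10* and the receptors *Tnfrsf1a* and *Tnfrsf11a*, those at 9 hr were *Tnf* and *Tnfrsf11a*, and the higher gene at 6 and at 9 hr was *Tnfaip2*. Over the 16 alternatives run for each, all 5 calls at 6 hr held. Where libraries of the genotypes are said here to be separated, this describes their values. The share of all genes whose groups are separated was not counted.

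*Tnf* was lower in *Cpeb4*-/- BMDMs late in the response. At 6 hr it was at 15.41, 15.45, 15.50 and 15.48 in WT mice 25, 88, 69 and 87 and at 15.19, 14.95, 15.10 and 15.21 in *Cpeb4*-/- mice 3, 62, 2 and 55. All 4 knockout libraries were below all 4 WT libraries, by a mean of 0.35 (1.28-fold lower, standard error 0.06, limma adjusted p = 0.0024), and the difference was −0.36 in batch 1 and −0.34 in batch 2. At 9 hr it was at 14.35, 14.11, 14.56 and 14.19 in WT and at 13.94, 13.61, 13.92 and 13.89 in *Cpeb4*-/- BMDMs. The groups again did not overlap and the difference was −0.46 (1.38-fold lower, standard error 0.10, adjusted p = 0.024), with −0.46 and −0.47 in the batches. This call at 9 hr was lost without *Cpeb4*-/- mouse 55 or 62 or WT mouse 25, 69 or 87 (adjusted p = 0.052, 0.065, 0.078, 0.060 and 0.050), without trend (0.052) and with no filter on low values (0.091). At 1 hr the libraries were separated too, at 16.81 to 16.90 in WT and 16.61 to 16.74 in *Cpeb4*-/- BMDMs, by −0.17 (standard error 0.05, adjusted p = 0.088), and before LPS the difference was 0.06 (standard error 0.06, adjusted p = 0.64). From the 1-hr level to 9 hr, *Tnf* changed by −2.72 to −2.26 in the 4 WT mice and by −2.99 to −2.74 in the 4 *Cpeb4*-/- mice.

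TNFR1 was lower and TNFR2 was not called at any time. At 6 hr *Tnfrsf1a* was at 13.72, 13.78, 13.76 and 13.77 in WT and at 13.52, 13.53, 13.55 and 13.60 in *Cpeb4*-/- BMDMs in the same order of mice. Every knockout library was below every WT library, and the level was 1.16-fold lower (−0.21, standard error 0.04, adjusted p = 0.0035). This was −0.22 and −0.19 in the batches. The libraries were also separated at 1, 3 and 9 hr, by −0.12, −0.15 and −0.16 (adjusted p = 0.11, 0.14 and 0.060). In one fit of all 40 libraries these 3 differences were called, both with the mouse as a replicate block (adjusted p = 0.020, 0.0096 and 0.0024) and without it (0.021, 0.011 and 0.0025). *Tnfrsf1b* was at 16.99 to 17.08 in WT and 16.96 to 17.06 in *Cpeb4*-/- BMDMs at 6 hr, with overlapping libraries (−0.04, standard error 0.05, adjusted p = 0.70), and quantile normalization turned this to 0.14 (adjusted p = 0.11). Before LPS its libraries were separated, by 0.10 (adjusted p = 0.28). At 1 hr it was 0.16 higher in the knockout (standard error 0.06, adjusted p = 0.10), and this passed only with the replicate block (adjusted p = 0.0087) and in the unblocked fit of all 40 libraries (0.0098). *Adam17* differed by 0.22 at 1 hr (standard error 0.08, adjusted p = 0.11, and in the fit of all 40 libraries 0.022 with the replicate block and 0.028 without it) and by 0.01 at 6 hr (standard error 0.05, adjusted p = 0.89).

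TRAIL showed the largest drop among the 8 genes tested at 6 hr. *Tnfsf10* was at 11.44, 11.86, 11.63 and 11.44 in WT and at 10.85, 10.48, 10.62 and 11.07 in *Cpeb4*-/- BMDMs. The libraries did not overlap and the knockout was 1.79-fold lower (difference −0.84, standard error 0.12, adjusted p = 0.00098), by −0.99 in batch 1 and −0.69 in batch 2. At 3 hr it was at 10.51, 10.57, 10.18 and 10.36 in WT and at 9.73, 9.84, 9.80 and 10.24 in *Cpeb4*-/- BMDMs, where *Cpeb4*-/- mouse 55 overlapped with the WT range. That difference was −0.51 (standard error 0.12, adjusted p = 0.042), with −0.76 in batch 1 and −0.25 in batch 2, and it was lost without *Cpeb4*-/- mouse 2, 3 or 62 or WT mouse 25 or 87 (adjusted p = 0.13, 0.14, 0.11, 0.12 and 0.069) and with batch as a covariate (0.071), without trend (0.083) and with no filter (0.13). By 9 hr the difference was 0.01 (standard error 0.11, adjusted p = 0.96), with libraries at 9.68 to 9.91 in WT and 9.48 to 10.01 in *Cpeb4*-/- BMDMs.

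*Tnfaip2* moved the other way. It was at 15.57, 15.59, 15.65 and 15.68 in WT and at 16.11, 15.92, 16.01 and 16.08 in *Cpeb4*-/- BMDMs at 6 hr, and at 14.84, 14.82, 14.99 and 14.80 against 15.36, 15.22, 15.10 and 15.28 at 9 hr. At both times every knockout library was above every WT library. The differences were 0.40 (1.32-fold higher, standard error 0.06, adjusted p = 0.00079) and 0.38 (1.30-fold higher, standard error 0.07, adjusted p = 0.011), and they were 0.43 and 0.38 at 6 hr and 0.46 and 0.29 at 9 hr in the 2 batches. The libraries were also separated before LPS and at 3 hr, by 0.15 and 0.18 (adjusted p = 0.14 and 0.15), and the value at 3 hr was called with quantile normalization (0.39, adjusted p = 0.010) and without WT mouse 88 (0.22, adjusted p = 0.042). *Fas* differed by 0.06 at 6 hr (standard error 0.05, adjusted p = 0.48) and by −0.10 to 0.02 at the other times, and its libraries overlapped at all 5 times.

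**Figure D3:**
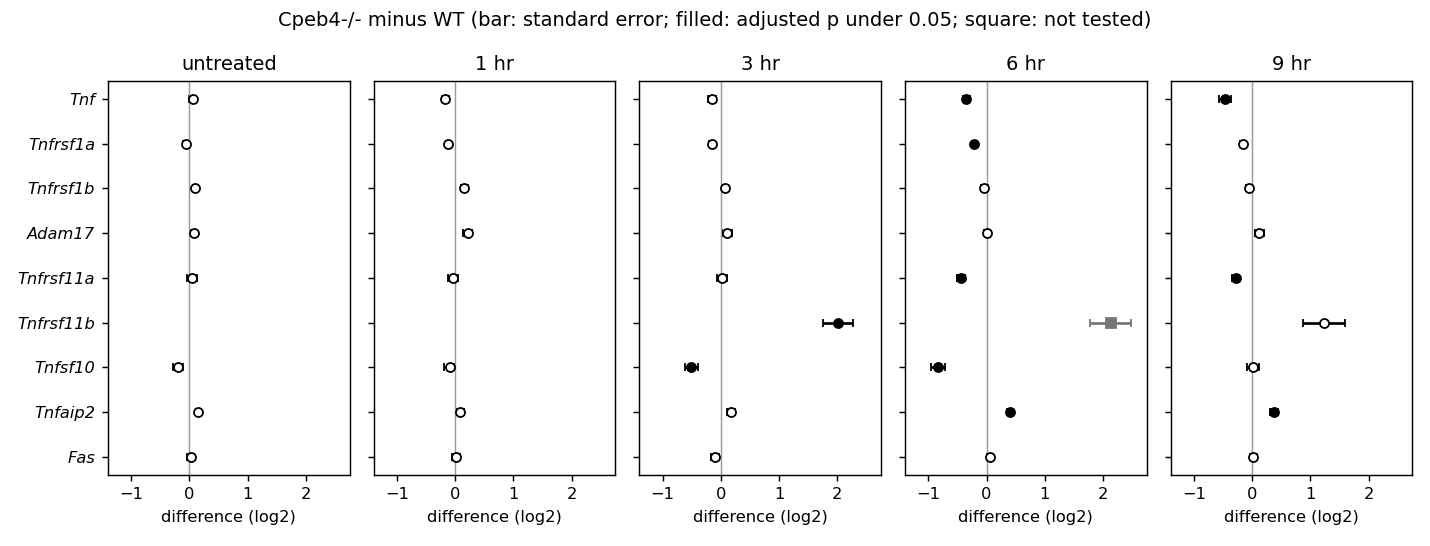
Difference of mean rlog, *Cpeb4*-/- minus WT (log2, bars show 1 standard error), for the 9 genes at each time in LPS (n = 4 a group). Filled circles mark an adjusted p under 0.05 in the filtered fits, which *Tnfrsf11b* at 3 hr entered through its knockout values, and the square marks *Tnfrsf11b* at 6 hr, which chose the gene and has no test. *Tnfrsf11b* has no symbol before 3 hr because it was under the filter on low values, and *Tnf*, *Tnfrsf1a*, *Tnfrsf11a* and *Tnfsf10* lie to the left of 0 at 6 hr.

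Osteoprotegerin, which was chosen for its gap between the genotypes at 6 hr, had the lowest level of the 9 genes. *Tnfrsf11b* (chr15:54250619-54278484) was at 1.45, 1.44, 1.46 and 1.48 in untreated WT BMDMs of mice 25, 88, 69 and 87 and at 2.12, 1.44, 1.49 and 1.50 in *Cpeb4*-/- mice 3, 62, 2 and 55. All but *Cpeb4*-/- mouse 3 were at the same floor. At 3 hr it was at 1.86, 1.85, 2.53 and 2.43 in WT and at 4.49, 3.48, 4.25 and 4.45 in *Cpeb4*-/- BMDMs, and at 6 hr at 1.93, 1.93, 3.45 and 2.83 against 5.34, 3.99, 4.61 and 4.71. At 9 hr it was at 1.57, 1.79, 2.80 and 2.67 against 4.21, 2.58, 3.60 and 3.37. The genotypes did not overlap at 3 and 6 hr, and at 9 hr *Cpeb4*-/- mouse 62 lay within the WT range. The gap at 6 hr, by which the gene was chosen, was 2.13 (standard error 0.35), with 2.74 in batch 1 and 1.52 in batch 2.

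Because the WT mean of *Tnfrsf11b* was under the filter minimum at 3 and 9 hr, and the gene passed through its *Cpeb4*-/- values, its tests are given from the fits with no filter on low values. At 3 hr, in other libraries of the same mice, it was 2.00 higher in the knockout (4.01-fold, standard error 0.29, limma adjusted p = 0.037 over 20784 genes, of which 167 were called), by 2.13 and 1.87 in the batches. At 9 hr the difference was 1.23 (standard error 0.42, adjusted p = 0.18), by 1.71 and 0.75 in the batches. Before LPS and at 1 hr the libraries of the genotypes overlapped. Within the knockout the first hour gave 0.83 (standard error 0.34, adjusted p = 0.073), and the gene rose by 1.71 from 1 to 3 hr (adjusted p = 9.4e-05). The steps to and from 6 hr in the knockout, 0.50 and −1.23, share the libraries that chose the gene and are given without a test. In WT BMDMs the 4 steps were 0.30, 0.41, 0.37 and −0.33 and none was called (adjusted p = 0.39 to 0.65), and the change from untreated to 9 hr was 0.75 (standard error 0.34, adjusted p = 0.070).

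RANK, whose ligand osteoprotegerin captures, was lower in the knockout at 6 and 9 hr. At 6 hr *Tnfrsf11a* was at 12.09, 11.98, 12.19 and 11.99 in WT and at 11.56, 11.64, 11.49 and 11.79 in *Cpeb4*-/- BMDMs, and at 9 hr at 11.70, 11.67, 11.72 and 11.68 against 11.44, 11.49, 11.22 and 11.47. All knockout libraries were below all WT libraries at both times. The knockout was 1.36-fold lower at 6 hr (−0.44, standard error 0.07, adjusted p = 0.0012) and 1.22-fold lower at 9 hr (−0.29, standard error 0.06, adjusted p = 0.021), with −0.43 and −0.45 in the batches at 6 hr and −0.22 and −0.35 at 9 hr. The call at 9 hr was lost without WT mouse 25, 69 or 87 (adjusted p = 0.069, 0.065 and 0.061) and with no filter on low values (0.054). RANKL itself, *Tnfsf11*, stayed between −1.70 and −1.24 in all 40 libraries, at the bottom of the scale.

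Osteoprotegerin is made mainly by stromal and osteoblast cells, and RANK marks osteoclast precursors, so markers of both are given beside them. The genes named from these lists were picked after their values were seen. Of 11 stromal and osteoblast markers 2 passed the filter on low values, *Pdgfrb* and *Runx2*. *Sp7*, *Bglap*, *Alpl* and *Lepr* were below 0 in every library, while *Runx2* was at 4.6 to 7.1. The summed level of the list (2 to the power of rlog) was 404.1 to 455.1 in WT and 617.1 to 737.4 in *Cpeb4*-/- BMDMs at 6 hr. It was 292.3 to 361.6 against 368 to 475.7 at 3 hr and 273.2 to 340.4 against 364.9 to 560.9 at 9 hr. *Pdgfrb*, a growth factor receptor, made most of it. It was at 8.49 to 8.70 in WT and 9.15 to 9.43 in *Cpeb4*-/- BMDMs at 6 hr (difference 0.67, standard error 0.07, adjusted p = 0.00022). The collagen gene *Col1a1* was at 1.78 to 2.56 in WT and 1.59 to 2.70 in *Cpeb4*-/- BMDMs at 6 hr, with overlapping libraries, but at 9 hr every knockout library (2.19 to 4.62) was above every WT library (1.26 to 1.88). *Col1a1* was under the filter and was not tested. Also separated at 9 hr, higher in the knockout, were *Pdgfrb*, *Runx2* (4.588 to 5.037 against 5.050 to 5.465) and *Pdgfra* (−0.21 to 0.12 against 0.36 to 0.72). The other markers of this list overlapped then. Of the 2 tested at 9 hr 1 was called higher, beside 7.91% of all genes. Of the 7 osteoclast markers 5 or 6 were tested at each time, and *Acp5* and *Ctsk*, an osteoclast phosphatase and protease that macrophages also express, were higher at 6 hr in the knockout (0.40 and 0.53, adjusted p = 0.0052 and 0.0036). The osteoclast markers *Ocstamp* and *Atp6v0d2* were at −0.51 and −0.18, the other way (adjusted p = 0.16 and 0.094), and none of the 6 tested at 6 hr was called lower. The summed level of this list was 2662 to 3171 in WT and 2818 to 3586 in *Cpeb4*-/- BMDMs at 6 hr. It was 3879 to 4705 against 4894 to 5598 before LPS and 4372 to 5053 against 4841 to 6707 at 1 hr. At 3 hr it was 3914 to 4299 against 4381 to 4850, and at 9 hr 2153 to 2579 against 2641 to 2940. The groups thus overlapped at 1 and 6 hr and were separated at the other times, higher in the knockout. *Ctsk* was separated already before LPS, at 7.83 to 8.05 in WT and 8.50 to 8.86 in *Cpeb4*-/- BMDMs (adjusted p = 0.0048). So was *Acp5*, at 7.12 to 7.40 in WT and 7.56 to 7.76 in *Cpeb4*-/- BMDMs. Before LPS 3 of the 5 osteoclast markers tested were called higher in the knockout, beside 1.31% of all genes. The part of either list in the osteoprotegerin and RANK results was not tested.

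**Figure D4:**
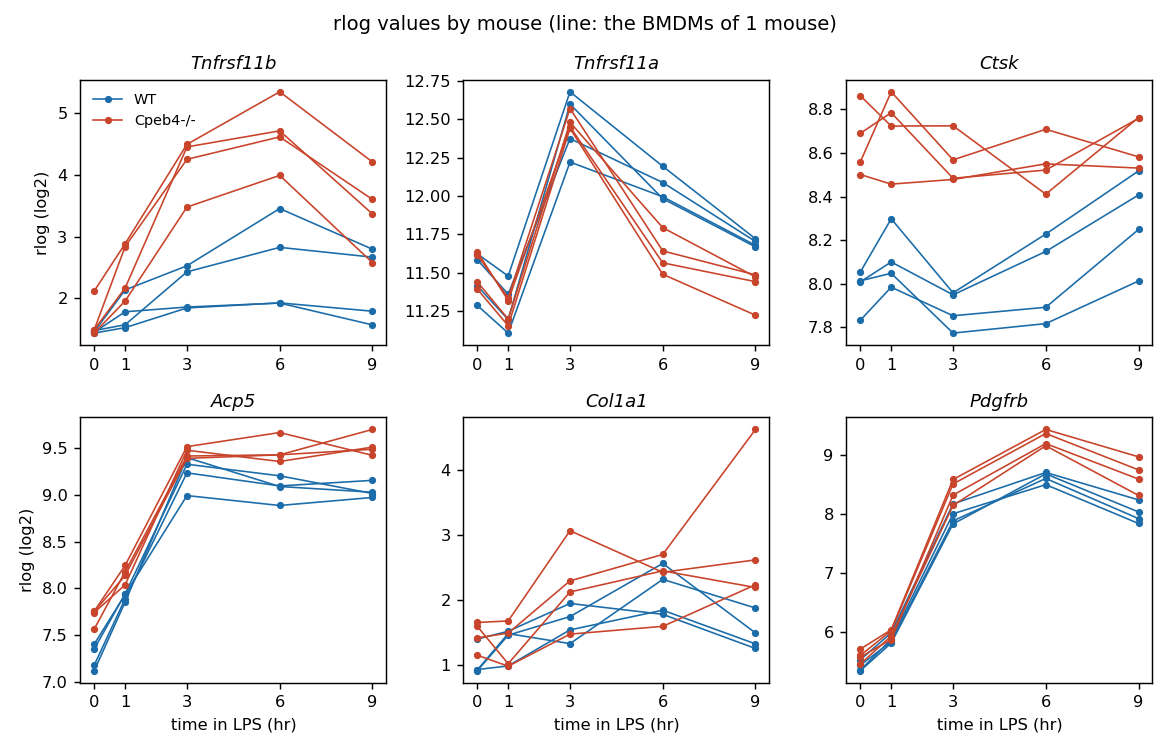
rlog values (log2 axis, different range in each panel) against time in LPS, with 1 line per mouse, 4 WT (blue) and 4 *Cpeb4*-/- (red). *Tnfrsf11b* and *Pdgfrb* are higher and *Tnfrsf11a* is lower in every knockout mouse at 6 hr. *Ctsk* and *Acp5* are separated before LPS, and *Col1a1* overlaps at 6 hr and is separated at 9 hr.

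Whether a genotype difference at a time departed from that before LPS was tested as an interaction in all 40 libraries. With *Tnfrsf11b* left out as above, none of the other 8 genes was called at 1 and 3 hr, beside 0.00763% and 0.206% of all genes. At an unadjusted p under 0.05 there were *Tnf* at 1 hr and none at 3 hr, beside 206 and 659 of 13103 genes tested. At 6 hr 3 of 8 were called beside 2.94% of all genes, and at 9 hr 1 of 8 beside 1.76%. The genes at 6 hr were *Tnf* (−0.41, standard error 0.11, limma adjusted p = 0.030), *Tnfrsf11a* (−0.49, standard error 0.12, adjusted p = 0.023) and *Tnfsf10* (−0.64, standard error 0.17, adjusted p = 0.032), and the gene at 9 hr was *Tnf* (−0.52, standard error 0.11, adjusted p = 0.0055). In each of these the level relative to untreated BMDMs was lower in the knockout. With the mouse as a replicate block, which removes the differences between mice, *Tnfaip2* was called at 6 hr (0.25, adjusted p = 0.041) and *Tnfrsf11a* at 9 hr (−0.33, adjusted p = 0.018). Without the block these had adjusted p-values of 0.11 and 0.19. The values of *Tnfrsf11b* at 3 and 9 hr were 1.82 and 1.05, and with no filter they were not called (adjusted p = 0.20 and 0.45). All 3 calls at 6 hr were lost without *Cpeb4*-/- mouse 2, 3 or 62 or WT mouse 88 (adjusted p = 0.051 to 0.20), *Tnf* also without WT mouse 25 or 87 (0.066 and 0.076) and *Tnfsf10* without WT mouse 69 or 87 (0.13 and 0.059), and the call of *Tnf* at 9 hr was lost without WT mouse 25 (0.052). Quantile normalization also ended the 3 calls at 6 hr (0.13, 0.075 and 0.095).

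The rest of the TNF pathway was followed in 5 lists that held 81 further genes, of which 66 were tested at 6 hr. Of these, 16 were lower and 4 higher in the knockout at 6 hr, and 5 were lower and 4 higher at 9 hr, beside the 16.3% and 7.91% called over all genes. Before LPS 1 of 66 tested was lower, at 1 hr 3 of 68 were lower, and at 3 hr 1 of 68 was lower and 2 higher, beside 1.31%, 1.91% and 3.68% of all genes. The median difference at 6 hr was −0.10 over these genes and −0.02 over all genes tested. Over all genes 1294 were called lower and 835 higher at 6 hr, and 419 lower and 610 higher at 9 hr. The ligands had the lowest median, −0.21 over 11 tested, with 4 lower and none higher. *Tnfsf18* (GITR ligand) was at 5.21 to 6.09 in WT and 4.43 to 4.91 in *Cpeb4*-/- BMDMs at 6 hr (−0.91, standard error 0.18, limma adjusted p = 0.0057), and *Tnfsf14* (LIGHT), a ligand of the lymphotoxin receptor, differed by −0.51 (adjusted p = 0.015). *Lta*, the lymphotoxin gene that lies beside *Tnf* in the genome, was at 4.36 to 5.12 in WT and 3.33 to 3.93 in *Cpeb4*-/- BMDMs at 9 hr (−1.14, standard error 0.19, adjusted p = 0.0079). All 3 of these ligands were weakly expressed, and they were named because they passed the test at the time given.

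Of 14 receptors tested at 6 hr 2 were lower and none higher, with a median of −0.02. They included *Tnfrsf12a*, the TWEAK receptor (−0.53, standard error 0.10, adjusted p = 0.0040). At 9 hr *Cd40*, a costimulatory receptor, was at 13.75 to 14.12 in WT and 13.06 to 13.45 in *Cpeb4*-/- BMDMs (−0.55, adjusted p = 0.012), and *Tnfrsf21*, death receptor 6, was 0.69 higher (adjusted p = 0.0058). Of 28 receptor adaptors and death complex genes 7 were lower and 2 higher at 6 hr, with a median of −0.07. The lower ones included *Rnf31*, the catalytic subunit of the linear ubiquitin ligase (−0.33, adjusted p = 0.00088). At 9 hr *Otulin*, which removes linear ubiquitin, and the adaptor *Traf2* were lower (−0.30 and −0.29, adjusted p = 0.030 and 0.036), while the kinase *Map3k5* (ASK1) and the adaptor *Traf5* were higher (0.72 and 0.33, adjusted p = 0.0027 and 0.042). Of 6 genes tested for ectodomain shedding and trimming, *Frmd8*, a partner of the iRhom proteins that ADAM17 depends on, was lower at 6 hr (−0.13, adjusted p = 0.033).

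The TNF-α-induced protein genes, which share a name rather than a function, had 2 higher and 2 lower among 7 tested at 6 hr, with a median of 0.16. The higher ones were *Tnfaip6*, which encodes a hyaluronan-binding protein (0.56, adjusted p = 0.025), and *Tnfaip8* (0.16, adjusted p = 0.024). The lower ones were *Tnfaip3*, the ubiquitin-editing enzyme A20 (−0.23, adjusted p = 0.010), and *Tnfaip8l2* (−0.21, adjusted p = 0.015). At 9 hr *Tnfaip8l3* was at 2.46 to 2.91 in WT and 4.05 to 4.68 in *Cpeb4*-/- BMDMs (1.56, adjusted p = 0.0016).

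**Figure D5:**
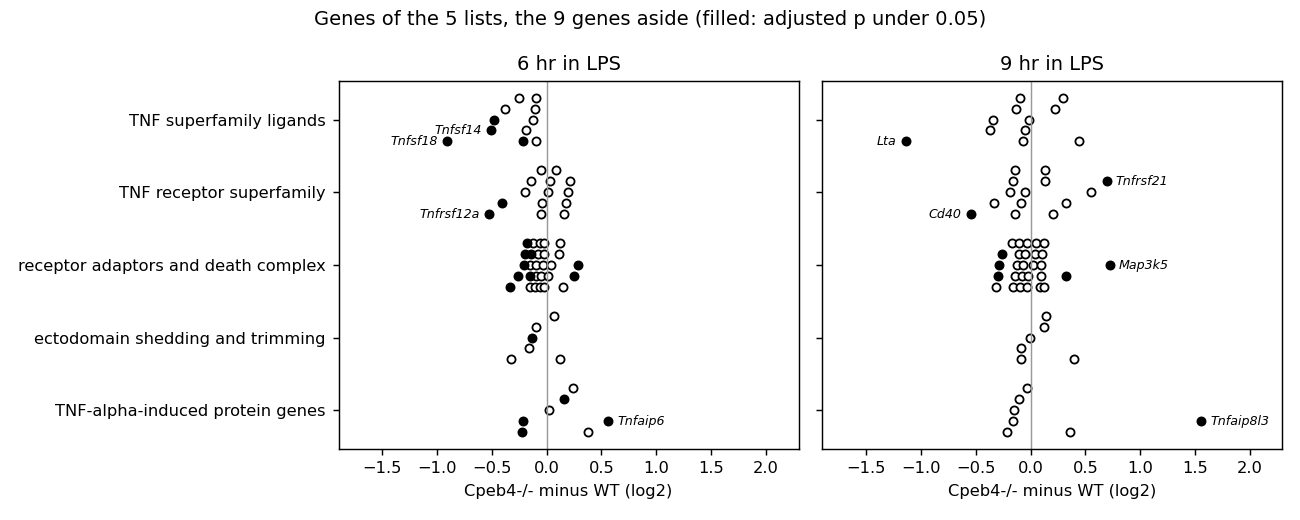
Difference of mean rlog, *Cpeb4*-/- minus WT (log2 axis), of the tested genes of 5 TNF pathway lists at 6 and 9 hr in LPS, the 9 genes described above left out. Filled points passed an adjusted p under 0.05, and those beyond 0.5 in size are named. At 6 hr 16 of the 20 filled points lie to the left of 0, beside 1294 genes called lower and 835 called higher over all genes tested.

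The genes whose rlog values ran most like *Tnf* over the 40 libraries, among 12943 named genes, were *Junb*, an AP-1 subunit (Pearson's r = 0.985), the neutrophil chemokine *Cxcl2* (0.983) and *Csrnp1* (0.978). *Junb* was at 12.94 ± 0.07 in untreated and 15.59 ± 0.09 in 1-hr WT BMDMs (SD, n = 4). At 6 hr *Junb* was at 14.52 ± 0.06 in WT and 14.38 ± 0.05 in *Cpeb4*-/- BMDMs, and *Cxcl2* at 14.12 ± 0.13 and 14.24 ± 0.14. The genes most like *Tnfrsf11b* were *Isg20l2*, an exonuclease gene (0.843), the nucleoporin *Nup93* (0.836) and the chemokine *Cxcl5* (0.832). *Cxcl5* was also weakly expressed, at 2.83 ± 0.25 in WT and 4.17 ± 0.29 in *Cpeb4*-/- BMDMs at 6 hr. These are descriptions over libraries that share 8 mice and the LPS time course. For *Tnfrsf11b* they include the 6-hr libraries by which it was chosen, which favours genes that are higher in the knockout at that time.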

How the data were processed

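Poly(A) RNA of BMDMs from 4 WT and 4 *Cpeb4*-/- mice at 5 times was sequenced by the authors with 8 cycles of amplification, aligned with STAR 2.3.0e to mm10 and counted per gene with featureCounts. The deposited table holds log2-scale rlog values, which the authors made with DESeq2 and which correct for library size and pull low counts toward the gene mean. Counts, and thus depth, were not analysed here. All statistics were computed from the rlog values with limma 3.58.1 in R 4.3.3, the test that this scale needs. Genotypes were compared at each time in the 8 libraries of that time, and LPS steps and interactions in one fit of 10 group means over 40 libraries, without a block. Moderation used a mean-variance trend, genes with a mean rlog under 2.32 (5 counts) were left out, and Benjamini-Hochberg adjustment covered every gene tested. The limma fits were first tried on simulated data. Likeness was Pearson's r. Motifs were searched in GENCODE vM21 transcripts with Python 3.

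Replicates are mice, and the 5 libraries of a mouse carry its number, so the mouse number pairs libraries across times (median correlation of deviations from the group means 0.29 over 80 pairs, against −0.0907 between mice of a genotype), while the genotypes share no mouse number. Batches 1 and 2 each held 2 mice of each genotype. Alternatives were no filter, a mean rlog of at least 5, moderation without trend or robust, quantile normalization, batch as a covariate, other samples in the fit, the mouse as replicate block, and leaving out each mouse. The 9 genes, the pathway and marker lists and the rules for named genes were chosen with earlier results of these data known. Named pathway genes were those with adjusted p under 0.05 at 6 or 9 hr, at most 3 in each direction per list by size, and for *Tnf* and *Tnfrsf11b* the 3 genes of highest r.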

Additional observations from a re-analysis of the deposited data

Results flagged for a closer look

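In 7 of 90 sets of 4 libraries (9 genes in 10 groups) 1 library stood far from the other 3, its gap to the nearest divided by the whole range being above Dixon's 95% critical value for 4 samples. Chance alone flags about 1 in 20 such sets. *Cpeb4*-/- mouse 3 was high before LPS for *Tnf* (12.74 against 12.45 to 12.50, ratio 0.836) and for *Tnfrsf11b* (2.12 against 1.44 to 1.50, ratio 0.921). At 9 hr *Cpeb4*-/- mouse 62 was low for *Tnf* (13.61 against 13.89 to 13.94, ratio 0.859), and *Cpeb4*-/- mouse 2 was low for *Adam17* (13.87 against 14.15 to 14.21, ratio 0.832) and for *Tnfrsf11a* (11.22 against 11.44 to 11.49, ratio 0.832). WT mouse 88 was high for *Tnfsf10* at 9 hr (9.91 against 9.68 to 9.72, ratio 0.846) and for *Tnfaip2* before LPS (14.03 against 13.90 to 13.92, ratio 0.85).

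The LPS response itself differed between the genotypes, by the interaction test in limma, for *Tnf* at 6 hr (−0.41) and at 9 hr (−0.52), for *Tnfrsf11a* at 6 hr (−0.49) and for *Tnfsf10* at 6 hr (−0.64). The values of each with its error and the libraries on which it depends are given above.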

How the results depend on the processing

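The counts here include *Tnfrsf11b* where it passed the filter through its knockout values, which gave 2 calls at 3 hr. The calls of *Tnfrsf11b* in these filtered fits are not tests of that gene. All 5 genotype calls at 6 hr held under every alternative run. At 3 hr 1 of the 2 calls was left with no filter (beside 167 of 20784 genes called in the whole fit) and with a mean rlog of at least 5 (483 of 10995). The same held without trend (230 of 13083) and with batch as a covariate (194 of 13083). The call left was *Tnfsf10* with a mean rlog of at least 5 and *Tnfrsf11b* in the other settings. At 9 hr the count was 1 with no filter (beside 582 of 20784 genes called). It was 5, *Tnfrsf11b* included, with batch as a covariate (1781 of 13008), with all 40 libraries in one fit (2280 of 13103) and with the replicate block (2378 of 13103). At 1 hr it was 3 with the last 2 of these, beside 4182 and 4323 of 13103 genes. For the interaction, the count at 6 hr was 1 with no filter (318 of 20784) and with quantile normalization (there *Tnfaip2*, 227 of 13103). At 9 hr it was 2 with quantile normalization (213 of 13103) and 3, *Tnfrsf11b* included, with the replicate block (654 of 13103). At 3 hr it was 1 with the block (*Tnfrsf11b*, 72 of 13103). From 6 to 9 hr in WT quantile normalization left 5, beside 6828 of 13103 genes. Of the LPS steps the replicate block added calls for *Tnfrsf11a* in WT to 1 hr (−0.19, adjusted p = 0.0095) and *Adam17* in *Cpeb4*-/- BMDMs from 3 to 6 hr (0.16, 0.015). Beside these and the calls given above it changed no other call of the genes other than *Tnfrsf11b*. Leaving out each mouse in turn gave 1 to 5 calls at 3 hr (5 without WT mouse 88, beside 2584 of 13079 genes) and 1 to 6 at 9 hr. Where 1 call was left at 3 hr it was *Tnfrsf11b*, and the 5 included that gene. The 6 at 9 hr, *Tnfrsf11b* included, came without *Cpeb4*-/- mouse 2, beside 4575 of 13005 genes. The 1 at 9 hr, *Tnfaip2*, came without WT mouse 25, 69 or 87, beside 387 of 13004, 457 of 13004 and 411 of 13011. For the interaction it gave 0 to 3 at 6 hr (0 without *Cpeb4*-/- mouse 2, 3 or 62 or WT mouse 88, beside 167, 159, 84 and 202 genes). At 9 hr it gave 0 to 1 (0 without WT mouse 25, beside 90 genes). The cause was not tested.

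Quantile normalization turned the sign of 16 values and brought 1 to 0. The genotype difference became −0.0012 for *Fas* at 1 hr, 0.14 and 0.13 for *Tnfrsf1b* at 6 and 9 hr, and −0.0034 for *Tnfsf10* at 9 hr, and the interaction 0.038 for *Tnfaip2* at 1 hr. In WT the steps became −0.23 for *Tnfrsf1a* to 1 hr, −0.049, −0.054 and 0.013 for *Adam17* over the last 3 steps, −0.075 for *Fas* from 3 to 6 hr, 0.062 for *Tnfrsf1b* from 6 to 9 hr and −0.11 for *Tnfrsf11a* over the whole 9 hr. In *Cpeb4*-/- BMDMs they became 0.055 for *Tnfsf10* to 1 hr, −0.093, −0.12 and 0.079 for *Adam17* over the last 3 steps, and 0 for *Tnfrsf1b* from 6 to 9 hr. Leaving out a mouse turned the sign of values near 0, none of them called. The genotype difference ranged from −0.011 to 0.060, −0.024 to 0.045 and −0.015 to 0.058 for *Fas* before LPS and at 1 and 9 hr, from −0.0095 to 0.084 for *Tnf* before LPS, from −0.019 to 0.093, −0.092 to 0.031 and −0.065 to 0.087 for *Tnfrsf11a* before LPS and at 1 and 3 hr, from −0.027 to 0.046 for *Adam17* at 6 hr and from −0.073 to 0.10 for *Tnfsf10* at 9 hr. The steps ranged from −0.11 to 0.036 for *Tnfsf10* in *Cpeb4*-/- BMDMs to 1 hr and from −0.055 to 0.093 for *Fas* in WT from 3 to 6 hr, and the interaction at 3 hr from −0.094 to 0.038 for *Tnfrsf11a* and from −0.00064 to 0.062 for *Tnfaip2*.

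With 4 mice per genotype, small differences such as those of *Fas* and *Tnfrsf1b* could not be told from 0. *Tnfrsf11b* sits near the floor of the scale, where rlog shrinkage makes differences too small and a few reads set each value. Cage and genotype cannot be told apart.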
